A study of Mus musculus with 9 samples.

Results

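The Dectin and Mincle family lectin receptors measured here were Mincle (Clec4e), MCL (Clec4d), Dectin-2 (Clec4n) and Dectin-1 (Clec7a). They were found by gene symbol, and all 4 were among the 18042 genes of the deposited table and the 13090 genes that passed the filter on low counts. RNA was sequenced from CD11b+ F4/80+ cells sorted from subcutaneous tumours of MC38, a mouse colon carcinoma line, in wild-type female C57BL/6 mice aged 6 to 8 weeks. The groups, from day 9, were IN@OMVs (12.5 µg of vesicle protein per mouse into the tumour), OMVs (vesicles without IN in their name, at that dose and route) and Control (solvent into the tumour), with 3 biological replicates each. OMVs usually abbreviates outer membrane vesicles, which bacteria shed. What IN stands for, the time from injection to harvest, and whether a replicate was 1 mouse or a pool are not stated in the labels, so p-values measure the spread between these libraries, which may be technical.

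The 4 receptors belong to the C-type lectins, membrane proteins of myeloid cells that bind glycans and glycolipids of fungi and mycobacteria, and ligands from damaged host cells. Mincle, MCL and Dectin-2 signal through the adaptor FcRγ (Fcer1g), whereas Dectin-1 carries a signalling motif in its own tail. All 4 lead to the kinase Syk and to the CARD9, BCL10 and MALT1 complex, which activates NF-kB. In macrophages Mincle is known as a gene induced by bacterial lipopolysaccharide, and Dectin-1 as a receptor for beta-glucan whose level rises with IL-4 or GM-CSF. The genes lie on chromosome 6 in RefSeq's mouse annotation. Clec4n, Clec4d and Clec4e are neighbours with 0 protein-coding genes between them, and Clec7a lies apart from them, between Clec1a and Olr1.

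Of the 9 libraries, which held 16813230 to 17288322 expected counts, 1 stood apart. In IN@OMVs 1 the 6 fibroblast markers summed to 1432 CPM (read counts scaled to library size), against 3306 to 5598 CPM in the other 8 libraries. T cell markers (8 genes) summed to 204 CPM in IN@OMVs 1, 176 CPM in OMVs 1 and 207 CPM in Control 1, and to 36.4 to 84.3 CPM in the other 6 libraries. The 10 macrophage markers, which include the sort markers Itgam and Adgre1, summed to 13900.1 to 19558 CPM in IN@OMVs, 14090.1 to 18528 CPM in OMVs and 14369 to 15444 CPM in Control. All 10 were detected in every library, and edgeR called 0 of them in each comparison. Itgam came nearest, with a log2 fold change of -0.50 ± 0.13 (SE) in IN@OMVs over Control (edgeR adjusted p = 0.0512). C1qa, C1qb, C1qc, Fcgr1 and Cd68 went the other way, at 0.30 to 0.49 (edgeR adjusted p = 0.143 to 0.316). Lyz2 was the largest part of the sum, averaging 5974 CPM in IN@OMVs, 6708 CPM in OMVs and 5906 CPM in Control. Each receptor was deeply covered, with 1898 to 9486 expected counts per library, all whole numbers.

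Mincle and Dectin-1 moved in opposite directions in IN@OMVs. Relative to Control, Clec4e stood at 0.495-fold, a fall, and Clec7a rose 1.70-fold, while Clec4d and Clec4n did not pass the test. Against OMVs both receptors were again called, in those directions. OMVs alone gave no call for any of the 4.

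**Figure D1:**
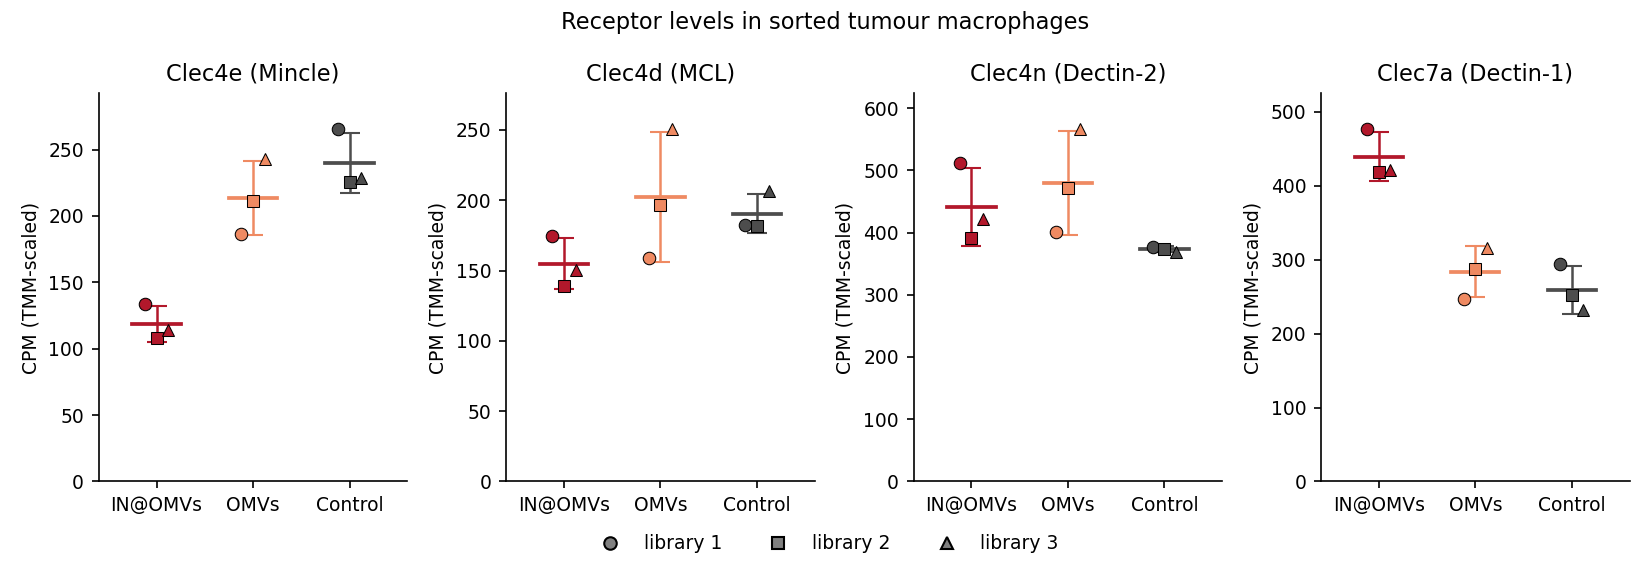
Level of each receptor in CPM (y axis, counts scaled to library size, from 0) in the 3 libraries of each group. Points are libraries, lines are group means and bars are SDs. Clec4e is lowest and Clec7a highest in all 3 IN@OMVs libraries, while the groups lie closer for Clec4d and Clec4n.

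Clec4e encodes Mincle, which binds mycobacterial cord factor and SAP130, a protein released by dying cells. It stood at 134, 108 and 114 CPM in IN@OMVs libraries 1, 2 and 3, 187, 211 and 243 CPM in OMVs, and 266, 226 and 228 CPM in Control. The IN@OMVs libraries lay below all 6 others, whereas OMVs and Control overlapped. In bulk RNA, fewer cells of a type and less RNA per cell cannot be told apart. The mean was 119 ± 13.4 CPM in IN@OMVs, 213 ± 28.1 CPM in OMVs and 239.9 ± 22.4 CPM in Control (SD, n = 3 each). In edgeR's quasi-likelihood test, adjusted by Benjamini-Hochberg over all genes, the log2 fold change of IN@OMVs over Control was -1.01 ± 0.12 (SE, adjusted p = 0.00121). Over OMVs it was -0.85 ± 0.12 (adjusted p = 0.00597). For OMVs over Control it was -0.17 ± 0.12 (adjusted p = 0.811), with a 95% interval from -0.43 to 0.09. Both calls held with any single library left out. With all 3 libraries of 1 number left out, both calls held without number 1 (edgeR adjusted p = 1.05e-05 over Control and 1.89e-05 over OMVs). They ended without number 2 (0.0744 and 0.237) and without number 3 (0.0719 and 0.264). Of all genes, 12.5% were lower without overlap in IN@OMVs against Control and 8.72% in IN@OMVs against OMVs.

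Clec7a encodes Dectin-1, the beta-glucan receptor. Its level was 477, 418 and 422 CPM in IN@OMVs, 247, 288 and 316 CPM in OMVs, and 294, 252 and 231 CPM in Control. Every IN@OMVs library lay above the other 6, and OMVs and Control overlapped. Means were 439 ± 33.0 CPM in IN@OMVs, 284 ± 34.6 CPM in OMVs and 259 ± 31.9 CPM in Control (SD, n = 3 each). IN@OMVs exceeded Control by 0.76 ± 0.11 on the log2 scale (edgeR adjusted p = 0.00484), a call that held without the libraries numbered 1 (adjusted p = 5.23e-05) and ended without those numbered 2 (0.167) or 3 (0.107). The rise over OMVs was 0.63 ± 0.11 (edgeR adjusted p = 0.0212), and this call ended without IN@OMVs 3 (adjusted p = 0.0644), OMVs 1 (0.0769) or OMVs 2 (0.0882). OMVs and Control differed by 0.13 ± 0.11 (edgeR adjusted p = 0.885), with a 95% interval from -0.13 to 0.39. So 2 of the 4 receptors passed in IN@OMVs against Control, where 6.55% of all genes did (3.32% higher and 3.24% lower). Against OMVs it was again 2 of 4, where 2.85% of all genes passed (1.1% higher and 1.75% lower). At an unadjusted p under 0.05 it was 2 of 4 against Control and 3 of 4 against OMVs, where 19.8% and 14.4% of all genes stood. Of all genes, 13.3% were higher without overlap in IN@OMVs against Control and 8.86% in IN@OMVs against OMVs.

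The 250 bases before the annotated start of the genes that moved, Clec4e and Clec7a, are shown from RefSeq (GRCm38.p6, minus strand, written 5′ to 3′ in the direction of the gene). Capitals mark matches to the motifs named after them.
Clec4e promoter, chr6:123289872-123290121: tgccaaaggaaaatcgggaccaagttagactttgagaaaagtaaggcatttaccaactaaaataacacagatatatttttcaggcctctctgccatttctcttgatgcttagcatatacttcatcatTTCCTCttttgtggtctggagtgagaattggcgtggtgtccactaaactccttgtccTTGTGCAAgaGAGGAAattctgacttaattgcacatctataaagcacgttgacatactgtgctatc
Clec7a promoter, chr6:129472780-129473029: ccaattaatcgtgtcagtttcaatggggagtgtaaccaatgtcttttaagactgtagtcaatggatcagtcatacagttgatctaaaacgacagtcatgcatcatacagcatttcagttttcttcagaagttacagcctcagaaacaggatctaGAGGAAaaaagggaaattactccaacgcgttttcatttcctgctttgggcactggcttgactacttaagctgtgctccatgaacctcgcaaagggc

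Both strands were searched for the PU.1 core GAGGAA, a C/EBP sequence TTGCNNAA, the AP-1 sequence TGANTCA, the interferon-gamma activated sequence TTCNNNGAA, the interferon-stimulated response element and the NF-kB consensus. PU.1 and C/EBP proteins are factors of the myeloid lineage, and C/EBPβ is known to drive Mincle. Clec4e held the C/EBP letters on the opposite strand 66 to 59 bases before its start and GAGGAA 56 to 51 bases before it, with another GAGGAA on the opposite strand farther upstream. Clec7a held GAGGAA 96 to 91 bases before its start and none of the other motifs. These matches did not overlap each other. Among 32851 mouse promoters of this length, 23.25% held GAGGAA and 9.56% held TTGCNNAA. A second Clec7a start in RefSeq gave the same match. The Clec4d window held GAGGAA on the opposite strand, 240 to 235 bases before its start, and none of the other motifs.

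Clec4d encodes MCL, a partner of Mincle that helps bring it to the cell surface. It stood at 175, 139 and 151 CPM in IN@OMVs, 159, 197 and 251 CPM in OMVs, and 183, 182 and 207 CPM in Control. OMVs spanned more than the whole of Control, and its library 3 was the highest of all. IN@OMVs lay below Control without overlap, as did 12.5% of all genes. IN@OMVs averaged 155 ± 18.2 CPM, OMVs 202 ± 46.1 CPM and Control 190.4 ± 14.0 CPM (SD, n = 3 each). Clec4d had a log2 fold change of -0.30 ± 0.15 in IN@OMVs over Control (edgeR adjusted p = 0.336) and of -0.39 ± 0.15 over OMVs (adjusted p = 0.293). The 95% intervals ran from -0.65 to 0.05 and from -0.73 to -0.04. For OMVs over Control it was 0.09 ± 0.15 (edgeR adjusted p = 0.982, interval -0.26 to 0.43), and without OMVs 3 it was -0.10.

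Clec4n encodes Dectin-2, which binds mannose-rich glycans of fungi. It read 512, 392 and 421 CPM in IN@OMVs, 400.3, 472 and 567 CPM in OMVs, and 377, 374 and 369 CPM in Control. Both vesicle groups lay above Control without overlap, and overlapped with each other. In OMVs against Control, 9.89% of all genes were higher without overlap, and in IN@OMVs against Control 13.3%. Averages were 442 ± 62.6 CPM in IN@OMVs, 479.6 ± 83.5 CPM in OMVs and 373 ± 4.31 CPM in Control (SD, n = 3 each). The log2 fold change was 0.24 ± 0.13 in IN@OMVs over Control (edgeR adjusted p = 0.364, interval -0.06 to 0.54) and 0.36 ± 0.13 in OMVs over Control (adjusted p = 0.447, interval 0.06 to 0.66). Over OMVs, IN@OMVs differed by -0.12 ± 0.13 (edgeR adjusted p = 0.769), and by 0.021 without OMVs 3.

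In OMVs against Control edgeR called 0 of the 4 receptors, and 0.42% of all genes. At an unadjusted p under 0.05 there was 1, Clec4n (edgeR unadjusted p = 0.0231), where 8.44% of all genes stood, and DESeq2 and limma-voom each called 0. With library 1 of every group left out, edgeR gave Clec4n 0.48 (adjusted p = 0.0173) and Clec7a 0.32 (adjusted p = 0.048) for OMVs over Control. Of 12 omissions of libraries, that was the 1 in which either gene passed. It also called more genes over the whole table than the main fit did. Over the 12 omissions the log2 fold change ran from 0.21 to 0.48 for Clec4n and from -0.029 to 0.32 for Clec7a.

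**Figure D2:**
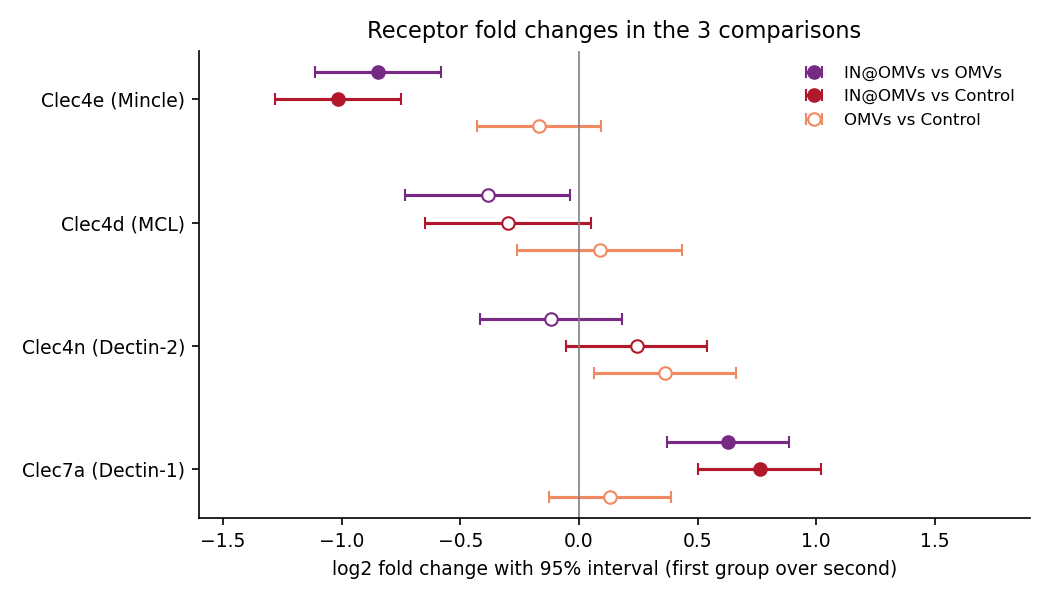
Log2 fold change (x axis) of each receptor in the 3 comparisons, first group over second, with 95% intervals of the edgeR fit. Filled points passed an adjusted p of 0.05: Clec4e on the lower side and Clec7a on the higher side, in both comparisons of IN@OMVs.

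The order of the groups differed between receptors. For Clec4e it ran IN@OMVs, OMVs, Control from low to high, and for Clec7a Control, OMVs, IN@OMVs; in each, OMVs and Control did not differ beyond their spread. For Clec4d the order was IN@OMVs, Control, OMVs and for Clec4n Control, IN@OMVs, OMVs, and no neighbours in either passed the test. Summed over the 4 receptors the level was 1058 to 1298 CPM in IN@OMVs, 993 to 1376 CPM in OMVs and 1034 to 1119 CPM in Control, overlapping in all groups. Clec4e made up 10.2% to 10.3% of the 4 receptors' counts in IN@OMVs, 17.6% to 18.8% in OMVs and 21.8% to 23.7% in Control. Clec7a made up 36.8% to 39.6% in IN@OMVs, 23.0% to 24.9% in OMVs and 22.4% to 26.3% in Control.

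Ratios of counts within a library need no scaling between libraries. The count of Clec7a was 3.57 to 3.86 times that of Clec4e in IN@OMVs, 1.30 to 1.36 times in OMVs and 1.01 to 1.12 times in Control. No 2 groups overlapped in this ratio, so OMVs and Control, which overlapped in each gene, were apart in the ratio of the pair. The ratio of Clec4n to Clec4e was 3.62 to 3.83 in IN@OMVs, 2.15 to 2.34 in OMVs and 1.42 to 1.66 in Control, again in 3 separate ranges. Between the neighbours Clec4d and Clec4e it was 1.29 to 1.32 in IN@OMVs, 0.853 to 1.03 in OMVs and 0.687 to 0.904 in Control, where the last 2 overlapped. Of the 6 possible ratios, all 6 separated IN@OMVs from Control, all 6 separated IN@OMVs from OMVs and 4 separated OMVs from Control. Among all pairs of the 13052 tested genes with counts in every library, 26.5%, 19.1% and 19.8% of ratios separated those groups. The 6 ratios share 4 genes, so they are not independent. With 3 libraries a group a two-sided exact permutation test cannot go below p = 0.1, which the separated ratios reached (adjusted p = 0.113 by Benjamini-Hochberg over 18 tests). These ratios were examined after the levels had been seen.

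**Figure D3:**
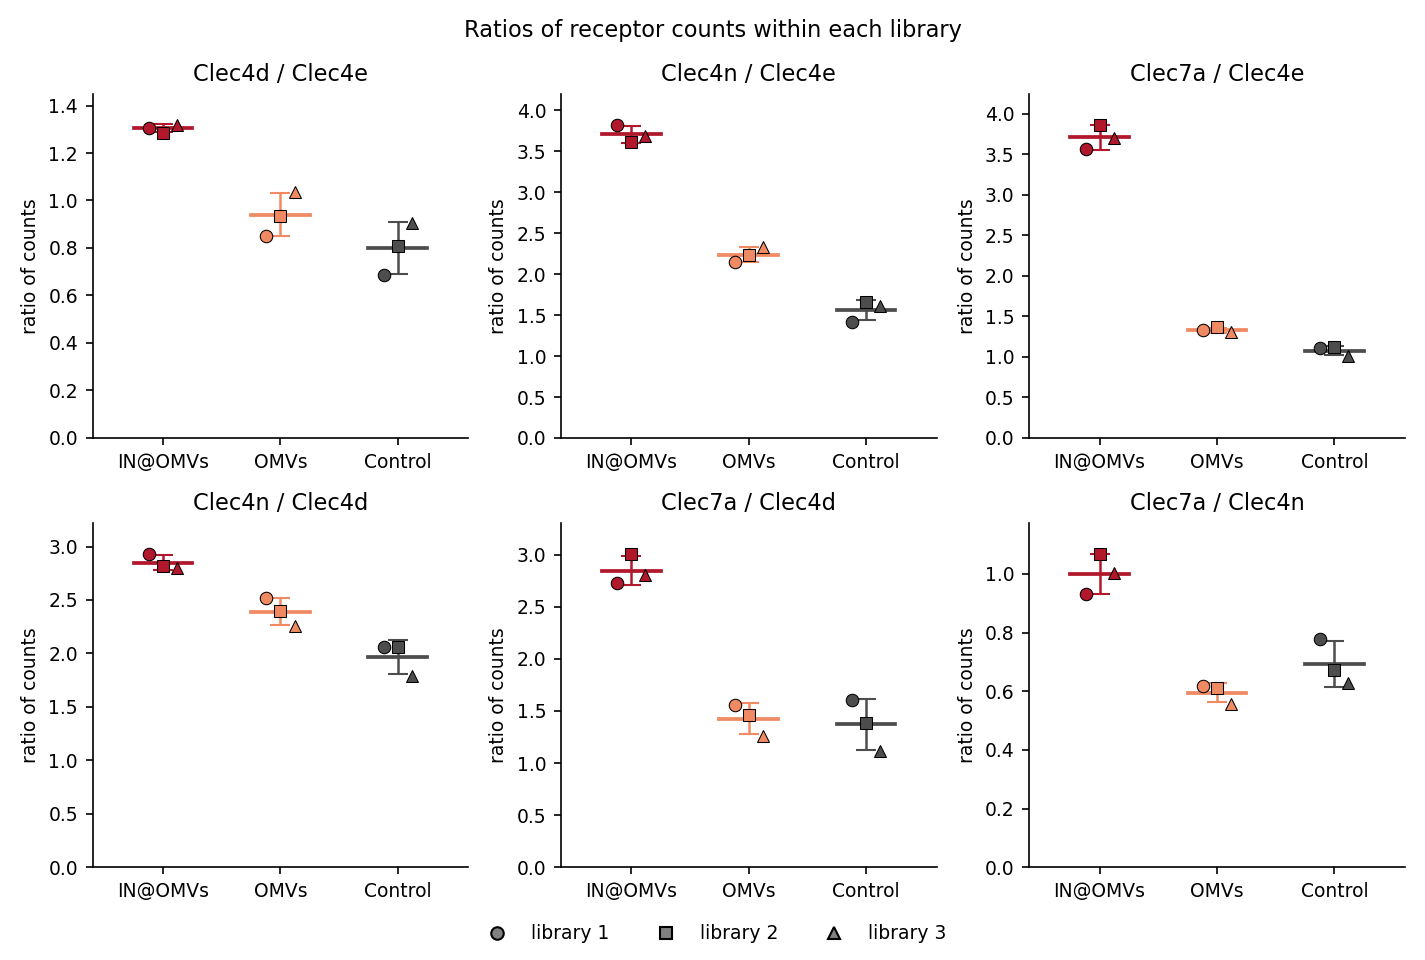
Ratio of the counts of 2 receptors within each library (y axis, no unit, from 0), for all 6 pairs. Points are libraries, lines are group means and bars are SDs. Clec7a over Clec4e lies at 3.57 to 3.86 in IN@OMVs, against 1.30 to 1.36 in OMVs and 1.01 to 1.12 in Control.

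Levels of different receptors were compared per kilobase of merged exons from GENCODE M21, an annotation that may differ from the authors'. On that scale Clec4n was the highest in every group, at 356 ± 50.4 CPM per kb in IN@OMVs, 386 ± 67.2 CPM per kb in OMVs and 301 ± 3.47 CPM per kb in Control (SD, n = 3 each). Clec4e was the lowest, at 47.2 ± 5.32 CPM per kb in IN@OMVs, 84.7 ± 11.2 CPM per kb in OMVs and 95.3 ± 8.88 CPM per kb in Control. Clec7a stood at 192 ± 14.4 CPM per kb and Clec4d at 117 ± 13.7 in IN@OMVs, without overlap. In Control, Clec7a stood at 113 ± 13.9 CPM per kb and Clec4d at 144 ± 10.6, so the order of these 2 genes was the reverse.

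Transcripts of the shared adaptor and kinase did not pass the test in any comparison. Fcer1g, the FcRγ adaptor of Mincle, MCL and Dectin-2, averaged 508 ± 128 CPM in IN@OMVs, 458 ± 66.9 CPM in OMVs and 462 ± 4.07 CPM in Control (edgeR adjusted p = 0.721 for IN@OMVs and 0.9999 for OMVs, each against Control). Syk stood at 291 ± 35.2, 337 ± 23.3 and 333 ± 3.60 CPM in IN@OMVs, OMVs and Control (edgeR adjusted p = 0.275 for IN@OMVs against Control). The log2 fold change of IN@OMVs over Control was -0.10 ± 0.14 for Card9, -0.03 ± 0.08 for Bcl10 and -0.05 ± 0.12 for Malt1, the members of the complex below Syk. Malt1 had 0.39 ± 0.12 in OMVs over Control (edgeR adjusted p = 0.298). Of 26 signalling genes in all, edgeR called 1 in IN@OMVs against Control (3.85%, where 6.55% of all genes were called). The list's median was -0.02 and that of all genes within 0.01 of 0. The gene called was the Src family kinase Fgr, at -0.57 ± 0.13 (edgeR adjusted p = 0.0339). The count was 2 with the replicate number as a block, and Fgr kept its call in 1 of 9 single omissions, that of IN@OMVs 1. In that omission 4 signalling genes passed. The number of all genes called also changed with the library left out. So the counts given for omissions, here and in the lists below, cannot be set against the main fit's share. Against OMVs edgeR called 0 of the signalling genes, where 2.85% of all genes were called. At an unadjusted p under 0.05 it had 6 of 26, where 14.4% of all genes stood. DESeq2 called 2 and limma-voom 0. Without IN@OMVs 1 edgeR called 3.

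In IN@OMVs against Control, where 6.55% of all genes were called, 0 of 10 tested inhibitory genes of the pathway rose and 2 fell. They were Tnfaip3, the NF-kB inhibitor A20 (-0.73 ± 0.15, edgeR adjusted p = 0.0214), and Pirb, an inhibitory receptor (-0.61 ± 0.13, adjusted p = 0.0232). Both also fell against OMVs (Tnfaip3 -0.88 ± 0.15, edgeR adjusted p = 0.016, and Pirb -0.60 ± 0.13, adjusted p = 0.0419). Of all genes, 2.85% were called in that comparison. Tnfaip3 lost its call against Control without IN@OMVs 2, IN@OMVs 3, Control 1 or Control 2, and Pirb without any of those or Control 3. Against OMVs, Tnfaip3 lost it without IN@OMVs 3 or any OMVs library, and Pirb kept it in 1 of 9 omissions, that of IN@OMVs 1. Without IN@OMVs 1 the number called against Control was 6, and without IN@OMVs 2, IN@OMVs 3, Control 1 or Control 2 it was 0. Pirb had fractional counts in 8 libraries, so some of its reads were shared with related genes. The phosphatase genes Ptpn6 and Inpp5d, which restrain Syk signalling, had log2 fold changes of 0.09 ± 0.16 and 0.06 ± 0.14 in IN@OMVs over Control.

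Of the 12 tested genes for factors and receptors upstream of the lectins, Cebpa rose (0.57 ± 0.13, edgeR adjusted p = 0.0394) and Csf2rb, a GM-CSF receptor subunit, fell (-0.46 ± 0.11, adjusted p = 0.0434) in IN@OMVs against Control. These calls were 16.7% of the list, where 6.55% of all genes were called. With the replicate number as a block neither gene passed (edgeR adjusted p = 0.0795 and 0.0658). Cebpa kept its call in 2 of 9 single omissions and Csf2rb, which had fractional counts in all 9 libraries, in 1. Cebpb, which encodes C/EBPβ, stood at 188 ± 31.9 CPM in IN@OMVs, 235 ± 20.8 CPM in OMVs and 223 ± 9.28 CPM in Control (edgeR adjusted p = 0.287 for IN@OMVs against Control). Spi1, which encodes PU.1, had a log2 fold change of 0.00 ± 0.16 in that comparison. Without IN@OMVs 1 the number of calls in this list was 7, a count not set against all genes in that omission. Against OMVs edgeR called 0, where 2.85% of all genes were called. At an unadjusted p under 0.05 it had 4 of 12, where 14.4% of all genes stood. DESeq2 called 3 and limma-voom 0. Without IN@OMVs 1 edgeR called 4 against OMVs.

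Genes that the Syk and CARD9 pathway can induce, which other receptors induce too, mostly moved down where they passed the test. In IN@OMVs against Control 9 of 23 tested fell and 1 rose, and against OMVs 10 fell and 0 rose, with medians of -0.79 and -0.83. Of all genes, 6.55% were called against Control and 2.85% against OMVs. In the same comparisons 9 of 10 neutrophil markers fell, with medians of -3.20 and -2.74, and their part in the fall of this list was not tested. Lcn2, the gene of lipocalin-2, which binds bacterial siderophores, read 7.39 ± 1.38 CPM in IN@OMVs, 92.9 ± 15.6 CPM in OMVs and 122 ± 13.1 CPM in Control (-4.04 ± 0.17 over Control, edgeR adjusted p = 1.03e-05). Csf3, the gene of the granulocyte growth factor G-CSF, read 0.664 ± 0.124 CPM in IN@OMVs, 9.88 ± 2.09 CPM in OMVs and 5.59 ± 0.954 CPM in Control. Ptgs2, the inducible prostaglandin synthase, read 105 ± 10.1 CPM in IN@OMVs, 259.7 ± 33.0 CPM in OMVs and 202 ± 18.45 CPM in Control. The call against Control was also made for Cxcl1, Cxcl2, Il1a, Il1b, Il6 and Egr1. Over single omissions the number called lay between 9 and 13 in each of these comparisons. The early growth response gene Egr2 was the 1 that rose (0.47 ± 0.11, edgeR adjusted p = 0.0312, and 0.0744 with the replicate block), with fractional counts in all 9 libraries and a call in 3 of 9 omissions. In OMVs against Control Cxcl1, a neutrophil chemokine, was the 1 gene called (1.29 ± 0.21, edgeR adjusted p = 0.04), and it kept that call in 1 of 9 omissions, that of IN@OMVs 1, where 3 genes of the list passed.

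Partners of Dectin-1 and other glycan receptors went both ways, with 2 of 10 higher and 2 lower in IN@OMVs against Control and also against OMVs. These calls were 40% of the list each time, where 6.55% and 2.85% of all genes were called. Lgals3, the gene of galectin-3, which acts with Dectin-1 in macrophages, rose (0.63 ± 0.08 over Control, edgeR adjusted p = 0.00244, and 0.57 ± 0.08 over OMVs, adjusted p = 0.00766). Cd36, a scavenger receptor, read 90.5 ± 2.54 CPM in IN@OMVs, 31.0 ± 6.83 CPM in OMVs and 38.7 ± 9.165 CPM in Control (1.23 ± 0.18 over Control, edgeR adjusted p = 0.00482). Ms4a4a, a membrane protein that associates with Dectin-1, fell by 0.75 ± 0.14 against Control (edgeR adjusted p = 0.0163), and so did the scavenger receptor Marco (-1.29 ± 0.32, adjusted p = 0.049), which kept its call in 4 of 9 omissions. Against Control the number called was 2 without IN@OMVs 3, Control 2 or Control 3 and 7 without IN@OMVs 1. Against OMVs it was 2 without IN@OMVs 3, OMVs 2 or OMVs 3. Among genes of endogenous ligands (7 tested, such as Vim and Lgals9) edgeR called 0 in each comparison, and DESeq2 and limma-voom called 0. At an unadjusted p under 0.05 edgeR had 1 in each comparison of IN@OMVs and 0 in OMVs against Control. Of all genes, 19.8% stood there in IN@OMVs against Control, 14.4% in IN@OMVs against OMVs and 8.44% in OMVs against Control.

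Of 24 other C-type lectins of myeloid cells tested, 1 rose in IN@OMVs against OMVs, Mgl2 (4.17%, where 2.85% of all genes were called). Against Control 4 rose and 2 fell, with a median of -0.07. These calls were 25% of the list, where 6.55% of all genes were called. Mgl2 and Clec10a, which encode galactose-binding lectins, rose by 1.63 ± 0.13 (edgeR adjusted p = 0.000168) and 0.75 ± 0.15 (adjusted p = 0.0208), both with fractional counts in all 9 libraries. Clec9a, a dendritic cell receptor for dead cells, rose by 1.31 ± 0.22 (edgeR adjusted p = 0.00832) at a low level, 3.74 ± 0.601 CPM in IN@OMVs and 1.504 ± 0.221 CPM in Control. Clec2d rose by 0.55 ± 0.11 (adjusted p = 0.0167). Olr1, the oxidised LDL receptor that lies next to Clec7a, fell (-0.98 ± 0.15, edgeR adjusted p = 0.0057), and so did Cd209f (-3.13 ± 0.66, adjusted p = 0.025), at 0.297 ± 0.109 CPM in IN@OMVs and 2.64 ± 1.196 CPM in Control. Cd209f, with fractional counts in some libraries and at most 6 expected counts in any IN@OMVs library, kept its call in 5 of 9 omissions. Clec2d and Clec10a each kept theirs in 6 of 9. The number of calls was 3 without IN@OMVs 3, Control 2 or Control 3 and 11 without IN@OMVs 1. Against OMVs it was 3 without IN@OMVs 1. In the cluster of Clec4n, Clec4d and Clec4e, the related genes Clec4a1, Clec4a2 and Clec4a3 had log2 fold changes of -0.24 ± 0.16, -0.22 ± 0.15 and -0.08 ± 0.16, without a call. Clec12a, an inhibitory lectin from the cluster of Clec7a, had 0.52 ± 0.15 (edgeR adjusted p = 0.085).

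**Figure D4:**
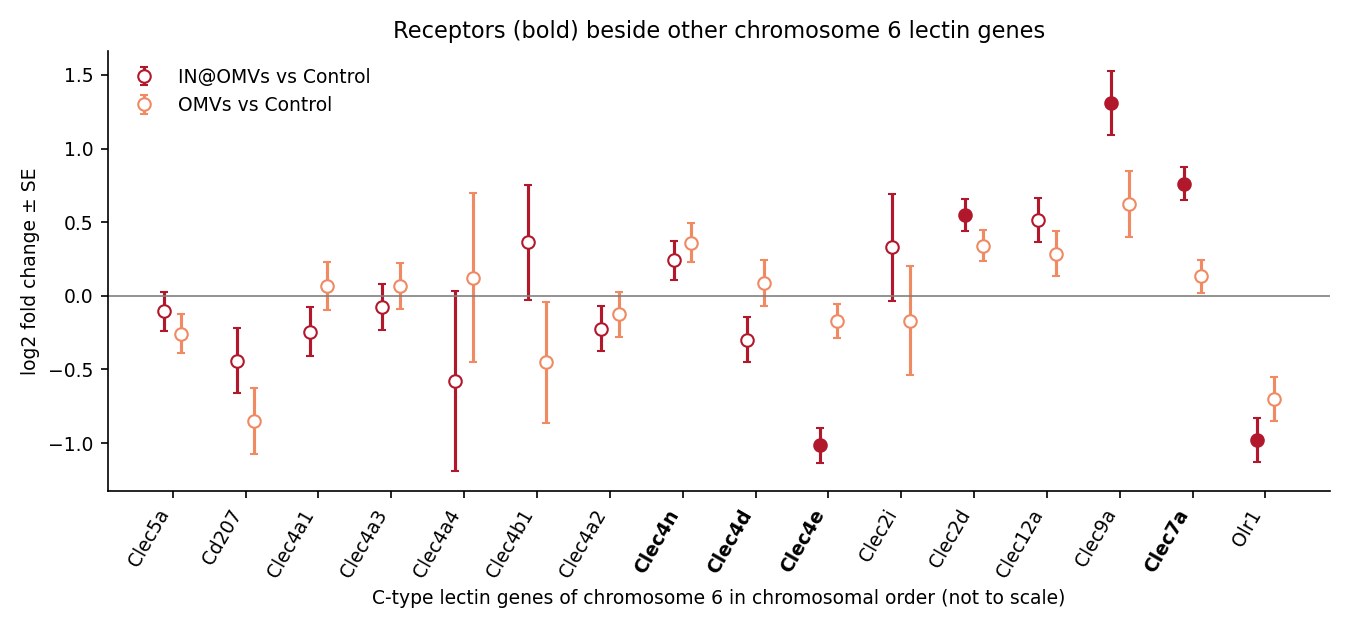
Log2 fold change ± SE (y axis) of the 4 receptors (bold) and the other listed lectin genes of chromosome 6 that were tested, in chromosomal order and not to scale. Filled points passed an adjusted p of 0.05. Clec4e falls beside the uncalled Clec4n and Clec4d, and Clec7a rises between Clec9a, which rose, and Olr1, which fell.

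In OMVs against Control edgeR called 0 genes in the lists of signalling, inhibitory, upstream, partner and other lectin genes. Of all genes, 0.42% were called there. At an unadjusted p under 0.05 these lists had 2 of 26, 0 of 10, 1 of 12, 0 of 10 and 7 of 24. Of all genes, 8.44% stood under it. DESeq2 called 0 in the first 4 and 3 of the lectins, limma-voom called 0 in all 5, and edgeR without IN@OMVs 1 called 5 of the lectins. DESeq2 also called more genes over the whole table than the main fit did.

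The genes whose pattern over the 9 libraries was most like that of each receptor were found by the root mean square difference of centred log2 CPM, among 10767 genes with a mean of at least 5 CPM. For Clec4e they were Gcnt2, Mmp19, Cd14, Thbs1 and Dusp1, at differences of 0.06 to 0.08 on the log2 scale. Cd14, the lipopolysaccharide co-receptor, changed by -1.07 in IN@OMVs over Control and -0.14 in OMVs over Control. These values resemble those of Clec4e because Cd14 was picked for its pattern in the same libraries. For Clec7a they were Amz1, Prr5l, Lgals3, Zbp1 and Clec10a (0.08 to 0.10). For Clec4d, Glrx, Ccl9, Ell2, Ms4a6d and Zswim6 were nearest (0.07 to 0.09), and for Clec4n, Slc31a2, Tfec, Ctsc, Pdia4 and LOC118567918 (0.06 to 0.09). Between the receptors themselves the difference was 0.23 for Clec4d and Clec4n, 0.32 for Clec4e and Clec4d, and 0.78 for Clec4e and Clec7a.

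The neutrophil and monocyte markers that edgeR called were lower in IN@OMVs, the direction of Clec4e and the opposite of Clec7a. Mincle and MCL are known in neutrophils and monocytes as well as in macrophages. Of 10 neutrophil markers, 9 fell in IN@OMVs against Control and 9 against OMVs. Of all genes, 3.24% were called lower against Control and 1.75% against OMVs. Their summed level was 226 to 278 CPM in IN@OMVs, 757 to 999 CPM in OMVs and 1015 to 1461 CPM in Control. Of the defining markers, Camp was at 0 in IN@OMVs 2 and Ngp in IN@OMVs 3. The neutrophil list's median log2 fold change of IN@OMVs over Control was -3.20, against -1.01 for Clec4e, -0.30 for Clec4d and 0.76 for Clec7a. Monocyte markers fell in 6 of 10 against Control and in 3 of 10 against OMVs, none of them at 0, with sums of 4518 to 5145 CPM in IN@OMVs, 5661 to 6223 CPM in OMVs and 7081 to 7558 CPM in Control. Of the monocyte markers uncalled against Control, Ly6c2 and Ms4a4c were higher in IN@OMVs (0.39 ± 0.23 and 0.36 ± 0.16). Ccr2 and Fn1 were lower (-0.34 ± 0.13 and -0.41 ± 0.11). Fn1 held most of the monocyte sum, at 3307 CPM on average in IN@OMVs and 4386 CPM in Control. The part of either cell type in the change of the receptors was not tested.

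**Figure D5:**
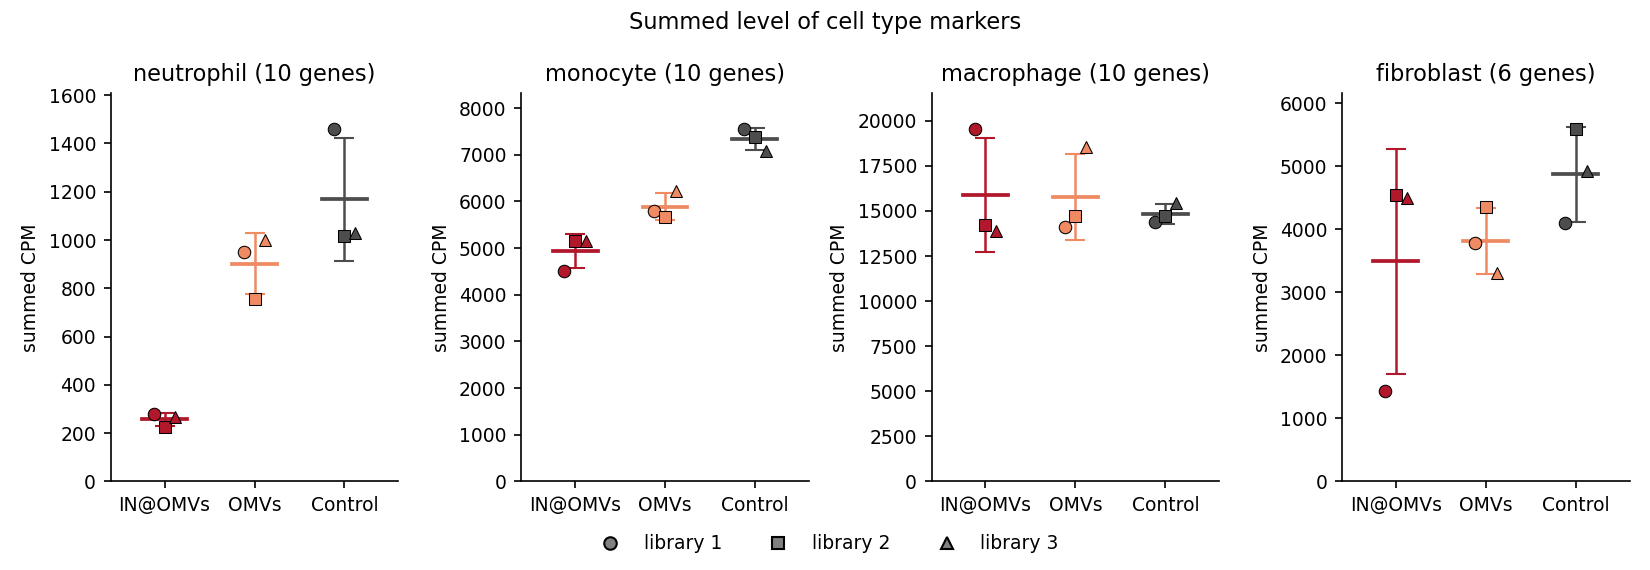
Summed CPM (y axis, from 0) of neutrophil, monocyte, macrophage and fibroblast markers in each library, with group means (lines) and SDs (bars). Neutrophil markers sum to 226 to 278 CPM in IN@OMVs, against 757 to 999 CPM in OMVs and 1015 to 1461 CPM in Control, and IN@OMVs 1 stands apart in fibroblast markers.

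Set against the summed macrophage markers of its own library, Clec4e came to 0.684% to 0.821% in IN@OMVs, 1.31% to 1.43% in OMVs and 1.48% to 1.85% in Control. On this measure, added after the levels had been seen, the 3 groups did not overlap. Of all genes tested, 12% were lower without overlap on it in IN@OMVs against Control, 3.93% in IN@OMVs against OMVs and 9.67% in OMVs against Control. Clec7a came to 2.44% to 3.04% in IN@OMVs, 1.71% to 1.96% in OMVs and 1.498% to 2.05% in Control, with IN@OMVs above the other 6 libraries. Higher without overlap were 5.06% of all genes in IN@OMVs against Control, 5.27% in IN@OMVs against OMVs and 2.23% in OMVs against Control. Clec4d came to 0.894% to 1.08% in IN@OMVs, 1.13% to 1.35% in OMVs and 1.24% to 1.34% in Control, so IN@OMVs lay below both. Clec4n came to 2.62% to 3.03% in IN@OMVs, 2.84% to 3.21% in OMVs and 2.39% to 2.62% in Control, where OMVs lay above Control and IN@OMVs met its upper end. Without IN@OMVs 1, the library with few fibroblast transcripts, the log2 fold change of IN@OMVs over Control was -1.11 for Clec4e (edgeR adjusted p = 0.000205), -0.40 for Clec4d (0.122), 0.12 for Clec4n (0.565) and 0.69 for Clec7a (0.0031).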

How the data were processed

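RNA of 9 libraries, 3 each from IN@OMVs, OMVs and Control, was extracted with TRIzol and prepared with oligo-dT beads, per the labels' protocols. Values in the deposited table were treated as the expected counts of a read counter, not normalised, because 88.8% to 89.6% in a library are whole numbers and totals differ between libraries. BWA, Bowtie2 and RSEM are named without versions or roles, and the builds mm9 and hg19 without saying which was used, per the submitters' processing notes. Strand setting and annotation are not given in the sources used here, so genes are named by the deposited symbols alone.

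After rounding, edgeR 4.0.16 (R 4.3.3) was run on the counts, with TMM factors, filterByExpr, 1 mean per group over all 9 libraries, and Benjamini-Hochberg adjustment over 13090 genes at 0.05. The spread (biological coefficient of variation 0.131, 6 residual degrees of freedom) is between libraries. SEs and 95% intervals come from the F statistic. CPM is scaled by TMM. Alternatives used limma 3.58.1, DESeq2 1.42.0, other filters and scalings, the replicate block and omission of libraries. The fit was tested on simulated counts. Named genes were the 4 receptors, Fcer1g, Syk, Card9, Bcl10, Malt1, Cebpb and Spi1, up to 5 called members per direction of 7 lists, and the 5 genes nearest in pattern. Other genes given were chosen after their values were seen. The members and lists were chosen with earlier results of these data known.

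What the replicate numbers mark is not stated. Deviations from the group means correlated at 0.53, 0.37 and 0.12 between same-numbered libraries of OMVs and Control, and between IN@OMVs and Control at 0.45, 0.31 and 0.15. Each was over 0.1, so by that rule those numbers were taken as pairs. The main fit held no pairing, and the block was used only as an alternative. Some different-numbered libraries correlated about as highly, at 0.35 for OMVs 2 with Control 3 and 0.36 for IN@OMVs 2 with Control 3. The correlations therefore do not show that the numbers pair. For same-numbered libraries of IN@OMVs and OMVs they were 0.07, 0.51 and -0.37, so by that rule the numbers were not taken as pairs.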

Additional observations from a re-analysis of the deposited data

How the results depend on the processing

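Against 55 genes called in OMVs versus Control, DESeq2 called 190, limma-voom 36, the 2 groups alone 115 and single omissions 0 to 266. Against 858 in IN@OMVs versus Control, the 2 groups alone gave 519 and single omissions 393 to 1635. Against 373 in IN@OMVs versus OMVs, DESeq2 called 619, the 2 groups alone 195 and single omissions 180 to 786. Of 216 recomputed receptor values, 194 kept their direction and side of the threshold, 12 lost the call, 5 gained one and 5 changed sign. Over single omissions the log2 fold change of Clec4d in OMVs over Control ran from -0.10 to 0.23, that of Clec4n in IN@OMVs over OMVs from -0.24 to 0.021, and that of Clec7a in IN@OMVs over OMVs from 0.54 to 0.72. The cause was not tested.

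With the replicate number as a block, 20 genes were called in OMVs versus Control. Clec7a in IN@OMVs over OMVs, where the numbers were not taken as pairs, had 0.63 (edgeR adjusted p = 0.0595), which leaves 1 of the 4 receptors called there. Pirb in that comparison had an edgeR adjusted p of 0.0599 with the block. The block changed no other receptor's call.

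Leaving out all 3 libraries of a number leaves 2 per group. Without number 1, 313, 1475 and 844 genes were called in OMVs versus Control, IN@OMVs versus Control and IN@OMVs versus OMVs. Calls were gained by Clec4n (0.48) and Clec7a (0.32) in OMVs over Control, by Clec4d (-0.43) in IN@OMVs over Control, and by Clec4d (-0.63) and Clec4n (-0.35) in IN@OMVs over OMVs. Without number 2 the counts of calls were 0, 85 and 15, and without number 3 they were 0, 61 and 6. Clec4e and Clec7a then lost their calls. Without number 2 they had -0.99 and 0.78 over Control and -0.79 and 0.67 over OMVs, and without number 3 -1.02 and 0.72 over Control and -0.71 and 0.75 over OMVs. Without number 3 the sign changed for Clec4d (-0.037) and Clec7a (-0.029) in OMVs over Control and for Clec4n (0.056) in IN@OMVs over OMVs.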
